A study of Mus musculus with 30 samples.

Results

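The genes described here encode chaperones and protein disulfide isomerases of the endoplasmic reticulum (ER): Hspa5, Hyou1, Dnajb9, Dnajc3, Hsp90b1, Calr, Canx, Pdia3, Pdia4 and Pdia6. They were taken by gene symbol from the deposited raw count table, 10 of its 30538 genes, and all 10 were among the 13173 genes that passed the filter on low counts. RNA sequencing was done on bone marrow-derived macrophages, which are grown from mouse marrow, of 3 C57BL/6 wild-type and 3 Ch25h-/- mice. The series asks how compounds that bind or inhibit the sterol transfer protein OSBP act on macrophages given lipopolysaccharide (LPS), a bacterial cell wall component that activates them. Each of the 10 groups held 3 libraries, numbered 1 to 3, and the number was taken to name the mouse within a genotype.

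Wild-type cells were left untreated or were pretreated for 18 h with 5 µM 25-hydroxycholesterol (25HC), 1 µM itraconazole or 0.3 µM OSW-1. 25HC is an oxysterol that activated macrophages make, itraconazole is an azole antifungal drug, and OSW-1 is a steroidal saponin from a plant. Each of these 4 wild-type conditions was collected either at time 0 without LPS or after 18 h with 10 ng/mL LPS. Ch25h-/- cells, which lack the enzyme that makes 25HC, were untreated only, again without LPS at time 0 or after 18 h of LPS. The LPS difference therefore also holds 18 h more of culture, and LPS and time in culture cannot be told apart. The labels name no vehicle for the untreated cells and do not say whether a compound stayed on the cells during LPS. The mice are nested in genotype, so genotype and animal source cannot be told apart either.

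Proteins that enter the secretory pathway fold in the ER. Hspa5 (BiP) is the ER's Hsp70 chaperone and binds exposed hydrophobic stretches of unfolded chains, Hyou1 exchanges its nucleotide, and the J-domain proteins Dnajb9 and Dnajc3 stimulate its ATPase. Hsp90b1 (Grp94) is the ER's Hsp90 and folds a narrower set of clients that includes Toll-like receptors and integrins. Calr and Canx are lectins that hold glycoproteins bearing a trimmed glucose-tagged glycan, Pdia3 (ERp57) is the disulfide isomerase that works with them, and Pdia4 and Pdia6 are further isomerases of the lumen. When unfolded chains build up, the sensors Ern1 (IRE1), Eif2ak3 (PERK) and Atf6 start the unfolded protein response, whose transcription factors Xbp1, Atf4 and Atf6 raise many of these genes, in part through a promoter motif called the ER stress response element (ERSE).

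The promoter sites are shown because they group the members by a property that no expression value of these data enters. The motif was already tied to many of these genes, as given above, so its share among them is no test. RefSeq's mouse promoter windows (build GRCm38.p6), which run from 250 bases before to 50 bases after the start, had entries for 9 of the 10 genes, all but Hyou1. The ERSE was searched on both strands as CCAAT, then 9 bases of any kind, then CCACG. An exact match was found in 39 of 32851 windows, 0.119% of them, and 6 of the 9 members held one. With 1 mismatch allowed in the fixed letters, 494 windows (1.5%) matched and 8 of the 9 members did. Each sequence is given in the direction of its gene, 5′ to 3′, and capitals mark the 2 fixed blocks of each match, CCAAT and CCACG, or their reverse complements CGTGG and ATTGG where the motif lies on the other strand.
Hspa5, chr2:34772017-34772051, plus strand, exact: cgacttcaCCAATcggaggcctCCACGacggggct
Dnajc3, chr14:118937819-118937853, plus strand, exact: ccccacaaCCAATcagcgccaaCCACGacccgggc
Hsp90b1, chr10:86705525-86705664, minus strand, 2 exact and 1 with a mismatch between them: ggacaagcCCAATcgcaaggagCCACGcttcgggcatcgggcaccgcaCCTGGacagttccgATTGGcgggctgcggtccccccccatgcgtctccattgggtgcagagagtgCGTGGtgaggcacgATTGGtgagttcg
Calr, chr8:84847067-84847101, minus strand, exact: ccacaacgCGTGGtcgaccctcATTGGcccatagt
Canx, chr11:50325792-50325826, minus strand, exact: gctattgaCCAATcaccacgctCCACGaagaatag
Pdia6, chr12:17266483-17266517, plus strand, exact: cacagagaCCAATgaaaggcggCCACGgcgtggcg
Pdia3, chr2:121413865-121413899, plus strand, 1 mismatch: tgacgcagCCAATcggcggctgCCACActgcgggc
Pdia4, chr6:47813594-47813628, minus strand, 1 mismatch: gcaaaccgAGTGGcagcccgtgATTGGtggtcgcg
The Hspa5 site ran from base -65 to base -47 relative to the start, the Dnajc3 site from -105 to -87, the Pdia6 site from -98 to -80, the Canx site from -145 to -127 and the Calr site from -162 to -144. Hsp90b1 was the member with 2 exact sites, at -212 to -194 and at -107 to -89. Dnajb9 had no match in its window even with 1 mismatch. These further motifs were in none of the 9 windows: ERSE-II (ATTGG, then 1 base of any kind, then CCACG) in 0.0365% of all windows; the UPRE core TGACGTGG in 0.676%; the cyclic AMP response element TGACGTCA in 1.79%; and the C/EBP-ATF composite element TGATGNAAN in 3.95%. The sterol response-like element TCACNCCAC was in 1.24% of all windows and in 1 member, Hsp90b1. CCAAT alone, a part of the ERSE, was in all 9 and in 37.4% of all windows, and CCACG alone in 8 and in 32.8%. A match of letters is a description and does not show that a factor binds there.

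In the GRCm38 annotation (GENCODE vM21), Hspa5 lies at chr2:34771970-34777547, Hyou1 at chr9:44379490-44392369 and Dnajc3 at chr14:118937976-118981697, all on the plus strand. Pdia3, at chr2:121413775-121438687, and Pdia6, at chr12:17266545-17284770, are also on the plus strand. On the minus strand are Hsp90b1 at chr10:86690209-86705509, Calr at chr8:84841850-84846934, Canx at chr11:50293961-50325673, Pdia4 at chr6:47796141-47813430 and Dnajb9 at chr12:44205559-44210326. The starts of the RefSeq windows are not always the gene ends of this annotation. The sites given above for Hspa5 and Pdia3 lie inside these gene spans. The Dnajb9 window also lay inside its gene span, so no base upstream of its annotated 5′ end was searched. The exons of Hsp90b1 overlap those of other genes over 632 bases, those of Pdia6 over 50, those of Pdia3 over 18, and those of Pdia4 and Dnajb9 over 14 each. The strand setting of the count step is not given in the sources used here, so a small part of these counts could belong to the overlapping genes.

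Library totals ran from 23656900 to 43922200 counts, to 6 significant digits. In 20 of the 30 libraries every count was even, while odd counts were present in the 3 libraries of OSW-1 with LPS, all 6 Ch25h-/- libraries and mouse 3 of unstimulated 25HC; this difference in the form of the counts cannot be told apart from those groups, and halving the even libraries changed none of the 230 calls made for the members. Ch25h itself, the targeted gene, was at 1.42 to 2.24 CPM (counts relative to the TMM-scaled library total) in unstimulated wild-type cells and at 0 to 0.277 in unstimulated Ch25h-/- cells, which do not overlap. The 6 macrophage markers summed were present in every library, and markers of dendritic cells, neutrophils, B cells, T cells, fibroblasts, mast cells and erythroid cells each summed to at most 23.8 CPM. Mouse 3 of untreated, unstimulated wild-type cells was the lowest library of its group for 10 of the 10 members, as was mouse 1 of 25HC with LPS, while mouse 2 of unstimulated Ch25h-/- cells and mouse 3 of OSW-1 with LPS were the highest of theirs for all 10. In bulk RNA, fewer cells of a type and less RNA per cell cannot be told apart.

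Per kilobase of exon, unstimulated wild-type macrophages held most of Calr, at 296 ± 40.8 CPM per kb (SD, n = 3). Pdia3 at 209 ± 23.9, Hspa5 at 207 ± 38.0 and Hsp90b1 at 182 ± 27.5 CPM per kb came next and overlapped in their spread. Canx stood at 123 ± 12.7, Pdia6 at 67.0 ± 12.4 and Pdia4 at 53.1 ± 7.22 CPM per kb. The co-factors of Hspa5 were the lowest, with Dnajc3 at 20.7 ± 2.27, Hyou1 at 13.6 ± 3.37 and Dnajb9 at 12.7 ± 0.966 CPM per kb. After LPS Calr still led in untreated wild-type cells, at 696 CPM per kb against 410 for Hspa5, whereas with OSW-1 and LPS Hspa5 led at 731 ± 116 against 267 ± 45.5 CPM per kb for Calr. These levels use the union of all annotated exons as the length, and another choice of transcript changes them.

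**Figure D1:**
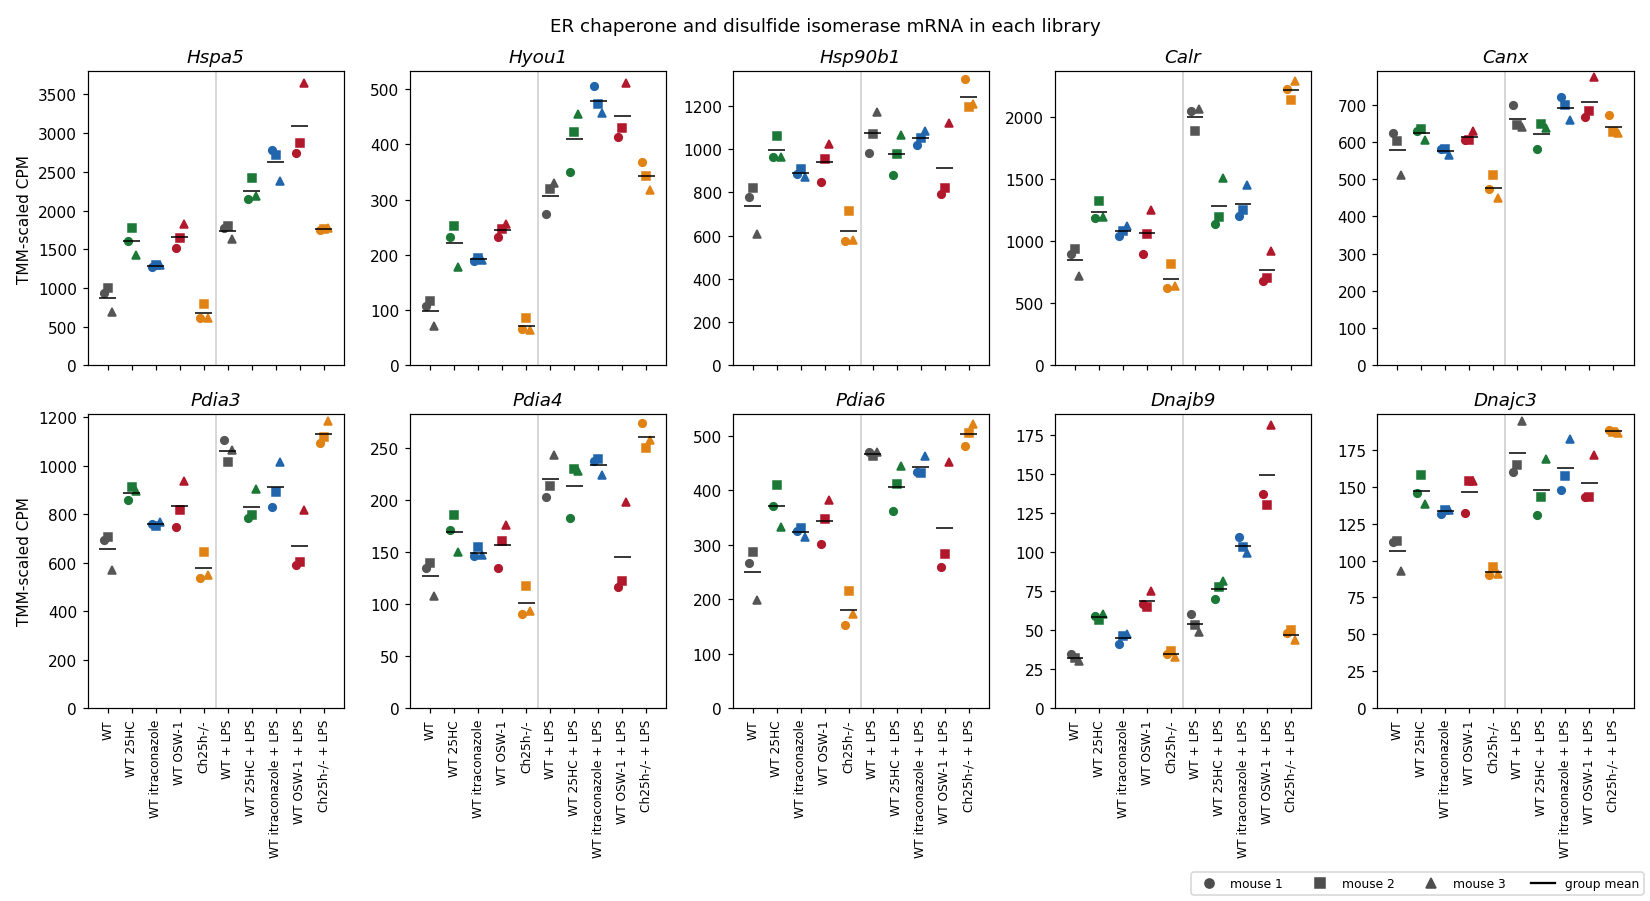
CPM (scaled by TMM, linear axes) of the 10 genes in every library by group, with 1 marker shape per mouse number and a line at the group mean. Hspa5, Hyou1 and Dnajb9 sit higher in each compound group than in untreated cells both without and with LPS, while Calr is high in the untreated LPS groups of both genotypes and lower in all 3 compound groups with LPS.

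The first comparison asked what LPS did to these genes in wild-type macrophages without a compound. All 10 were higher after 18 h of LPS, with 30.8% of all tested genes called higher and 30.1% lower at an adjusted p under 0.05 (edgeR's quasi-likelihood test, Benjamini-Hochberg adjusted over the tested genes). Their median log2 fold change was 0.77, against -0.01 over all tested genes. Hyou1, the exchange factor of Hspa5, moved most. Its levels were 108, 117 and 70.7 CPM in mice 1, 2 and 3 without LPS and 274, 319 and 330 CPM with it. The lowest LPS library was thus well above the highest unstimulated one, and the fold was 3.12 (log2 1.64 ± 0.15 SE, adjusted p = 1.14e-09).

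Calr, the soluble lectin, was at 901, 939 and 719 CPM without LPS and at 2054, 1887 and 2071 CPM with it. The groups lay far apart, and the fold was 2.35 (log2 1.23 ± 0.14, adjusted p = 3.27e-08). Hspa5 was at 933, 997 and 692 CPM without LPS and at 1772, 1798 and 1632 CPM with it, a 1.98-fold rise (log2 0.99 ± 0.13, adjusted p = 3.77e-07). Again mouse 3 was the lowest of each group without the groups meeting. The isomerases rose by less: Pdia6 by 1.86-fold, Pdia4 by 1.73-fold and Pdia3 by 1.62-fold. Dnajb9 rose 1.68-fold, Dnajc3 1.63-fold and Hsp90b1 1.46-fold. Canx, the membrane-bound lectin, changed least, from 511 to 623 CPM without LPS to 639 to 698 CPM with it (log2 0.19 ± 0.08, adjusted p = 0.0378). Its call was lost with no filter on low counts and in a fit of these 2 groups alone. The call also ended without mouse 3 of the unstimulated group (log2 0.12) and without mouse 1 of the LPS group (0.16). Its sign turned under scaling by library totals alone (-0.15). That scaling put the median of all genes at -0.35 and also ended the call of Hsp90b1 (0.21).

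Ch25h-/- macrophages raised the same 10 genes after LPS, with 28% of tested genes called higher and 29.2% lower in that comparison and a member median of 1.20 on the log2 scale. Hyou1 went from 65.3, 86.2 and 64.3 CPM to 368, 343 and 317 CPM, a 4.76-fold difference (log2 2.25 ± 0.16, adjusted p = 5.93e-12). Calr rose 3.19-fold, from 627, 817 and 642 CPM to 2228, 2145 and 2292 CPM. Hspa5 rose 2.59-fold, from 619, 800 and 619 CPM to 1748, 1763 and 1777 CPM, where the LPS libraries were nearly level with each other. Pdia6 rose 2.79-fold, Pdia4 2.59-fold, Dnajc3 2.04-fold, Hsp90b1 1.99-fold and Pdia3 1.96-fold. Canx at 1.34-fold and Dnajb9 at 1.36-fold had the smallest rises. Scaling by library totals alone, which put the median of all genes at -0.29, ended both calls (log2 0.16 for Canx and 0.17 for Dnajb9).

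The LPS difference itself was not called different between the genotypes for any member by edgeR's quasi-likelihood test, where 0% of tested genes were called, and DESeq2 and limma-voom also called 0 members. At an unadjusted p under 0.05, 9 of the 10 members and 1476 of all tested genes differed. For Hyou1 the LPS difference was 0.61 ± 0.21 larger on the log2 scale in Ch25h-/- cells (adjusted p = 0.326), and for Dnajb9 it was 0.31 ± 0.15 smaller (value -0.31). Without LPS, 9 of the 10 members had a lower mean in Ch25h-/- than in wild-type cells, all but Dnajb9. None of them was called by edgeR, with 0.00759% of tested genes called either way. At an unadjusted p under 0.05, 6 members and 1717 of all tested genes differed. The size was -0.48 ± 0.16 for Pdia6 (adjusted p = 0.21), -0.45 for Hyou1, -0.36 for Hspa5 and -0.28 ± 0.08 for Canx (adjusted p = 0.155), on the log2 scale. Canx was called by DESeq2 (-0.29), and leaving out mouse 3 of unstimulated wild-type cells let edgeR call 4 members: Pdia6 (-0.62), Hyou1 (-0.64), Hspa5 (-0.50) and Canx (-0.36). With LPS the genotypes differed by -0.20 (Dnajb9) to 0.25 (Pdia4) on the log2 scale. There 0 members were called by edgeR, DESeq2 or limma-voom, with 0.228% of tested genes called by edgeR. An unadjusted p under 0.05 was found for 0 members and for 2257 of all tested genes.

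The second comparison asked what each compound did before any LPS. With 25HC, 9 of the 10 genes rose and Canx did not pass the test, with 15.9% of tested genes called higher and 12.8% lower, and the median over the members was 0.50. Hyou1 was at 233, 252 and 178 CPM with 25HC against 108, 117 and 70.7 CPM in untreated cells, 2.25-fold higher (log2 1.17 ± 0.15, adjusted p = 3.15e-06). Hspa5 was at 1609, 1772 and 1426 CPM, 1.83-fold above untreated cells (log2 0.87 ± 0.13, adjusted p = 1.85e-05), and Dnajb9 at 58.7, 56.7 and 59.99 CPM against 34.9, 32.0 and 29.97 CPM, 1.81-fold higher (log2 0.86 ± 0.10, adjusted p = 1.49e-06). In all of these genes every 25HC library was above every untreated one. The other called members differed by less, from 0.41 ± 0.15 on the log2 scale for Pdia4 (adjusted p = 0.0456) to 0.56 ± 0.16 for Pdia6, with Calr at 0.54 ± 0.14. Without mouse 3 of the untreated group only 5 members were called, since Pdia4 (0.30), Hsp90b1 (0.32), Pdia3 (0.35) and Pdia6 (0.42) no longer passed. Pdia4 also did not pass with DESeq2 (0.38), without untreated mouse 1 (0.45) or without 25HC mouse 1 (0.40), and Pdia4 (0.34), Hsp90b1 (0.39) and Pdia6 (0.49) did not pass without 25HC mouse 2.

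Itraconazole raised 4 of the 10 without LPS, with 14.4% of tested genes called higher and 12.4% lower: Hspa5 and its 3 co-factors. Hyou1 was at 190, 195 and 191 CPM, 1.95-fold above untreated cells (log2 0.96 ± 0.15, adjusted p = 4.3e-05). Hspa5 was at 1277, 1301 and 1294 CPM, a 1.48-fold rise (0.56 ± 0.13, adjusted p = 0.00203), and these libraries were much closer to each other than the untreated ones were. Dnajb9 rose 1.39-fold and Dnajc3 1.26-fold. The other 6 had log2 differences from -0.01 (Canx) to 0.37 (Pdia6, adjusted p = 0.0847), and the itraconazole libraries of Canx overlapped the untreated ones. Dnajc3 was lost without untreated mouse 3 (0.24) or itraconazole mouse 2 (0.32). Calr was called higher as well by DESeq2 (0.34, adjusted p = 0.0474) and limma-voom (0.36, adjusted p = 0.0295). Its call was also made with the mouse number as a block (0.34), in a fit of these 2 groups alone (0.34) and under library totals alone (0.40). Pdia6 was called by limma-voom (0.39, adjusted p = 0.0491) and in that fit of 2 groups (0.36). Both were called without untreated mouse 2.

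OSW-1 raised 7 of the 10 without LPS, with 20.1% of tested genes called higher, 17.2% lower and a member median of 0.41. Hyou1 stood at 233, 246 and 256 CPM, 2.49-fold above untreated cells (log2 1.32 ± 0.15, adjusted p = 2.49e-07). Dnajb9, which takes Hspa5 to unfolded clients and to Ern1, was at 66.6, 64.7 and 74.8 CPM, 2.13-fold higher (1.09 ± 0.10, adjusted p = 1.59e-08), and Hspa5 at 1511, 1646 and 1832 CPM, 1.9-fold higher (0.93 ± 0.13, adjusted p = 4.01e-06). Each of these OSW-1 groups was clear of its untreated group. Dnajc3 (0.46 ± 0.10), Pdia6 (0.45 ± 0.16), Hsp90b1 (0.36 ± 0.12) and Pdia3 (0.35 ± 0.12) rose by less, while Calr (0.33), Pdia4 (0.30) and Canx (0.08) did not pass and had overlapping groups. Only 4 members were called without untreated mouse 3, when Hsp90b1 (0.24), Pdia3 (0.25) and Pdia6 (0.31) no longer passed, and the same 3 did not pass without OSW-1 mouse 3 (0.30, 0.25 and 0.37). Hsp90b1 (0.35) and Pdia6 (0.45) were also lost without OSW-1 mouse 2. The 3 comparisons of this kind share the untreated libraries, so their values stand side by side and are not independent of each other.

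With LPS present the members no longer moved one way. Against LPS alone, 25HC with LPS raised 3 of the 10 (20.8% of tested genes were called higher) and lowered 2 (21% lower). Dnajb9 was at 69.6, 77.3 and 81.7 CPM against 60.4, 53.1 and 49.1 CPM with LPS alone, 1.41-fold higher (log2 0.49 ± 0.10, adjusted p = 0.000512). Hyou1 rose 1.33-fold (0.41 ± 0.15, adjusted p = 0.0276) and Hspa5 1.3-fold (0.38 ± 0.13, adjusted p = 0.0208). Calr was at 1142, 1196 and 1513 CPM against 2054, 1887 and 2071 CPM, so every library with 25HC lay below every one without it (-0.64 ± 0.14, 1.56-fold lower, adjusted p = 0.000621). Pdia3, the partner of Calr, was 1.28-fold lower (-0.36 ± 0.12, adjusted p = 0.0151). Dnajc3 (-0.23, adjusted p = 0.0723), Pdia6 (-0.20), Hsp90b1 (-0.14), Canx (-0.09) and Pdia4 (-0.04) did not pass. When only these 2 groups were fitted, 2 members were called, and without 25HC mouse 2 of the LPS group the calls of Hspa5 (0.32), Hyou1 (0.39) and Pdia3 (-0.33) were lost. Single calls also ended without other libraries with LPS: Hyou1 without untreated mouse 1 (0.34) or 25HC mouse 3 (0.33), Hspa5 without untreated mouse 3 (0.34) and Pdia3 without 25HC mouse 1 (-0.32).

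Itraconazole with LPS raised Dnajb9, Hyou1 and Hspa5 and lowered Calr, with 26.5% of tested genes called higher and 27.9% lower. Dnajb9 was at 109, 103 and 99.2 CPM, 1.92-fold above LPS alone (log2 0.94 ± 0.10, adjusted p = 6.56e-08). Hspa5 was at 2785, 2722 and 2388 CPM, 1.52-fold higher (0.60 ± 0.13, adjusted p = 0.000359), and Hyou1 at 505, 472 and 457 CPM, 1.56-fold higher (0.64 ± 0.15, adjusted p = 0.000853). All 3 groups stood clear of LPS alone. Calr was at 1202, 1257 and 1454 CPM, below each library of LPS alone (-0.62 ± 0.14, 1.54-fold lower, adjusted p = 0.000515). The other 6 lay between -0.22 (Pdia3, adjusted p = 0.112) and 0.09 (Pdia4) on the log2 scale. Leaving out single libraries gave 4 or 5 calls.

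The widest split between members came with OSW-1 and LPS, where 3 rose and 4 fell while 34.3% of tested genes were called higher and 37.1% lower. The member median was -0.21, against -0.06 over all tested genes. Dnajb9 was at 137, 130 and 181 CPM against 60.4, 53.1 and 49.1 CPM with LPS alone, 2.76-fold higher (log2 1.46 ± 0.10, adjusted p = 5.8e-12). Hspa5 was at 2747, 2869 and 3652 CPM, 1.78-fold higher (0.83 ± 0.13, adjusted p = 2.9e-06), and Hyou1 at 414, 429 and 511 CPM, 1.47-fold higher (0.55 ± 0.15, adjusted p = 0.00181). In each of these genes mouse 3 was the highest library, and the other 2 were also above every library of LPS alone.

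Calr fell furthest with OSW-1 and LPS. It was at 684, 703 and 920 CPM, all under the lowest library of LPS alone (1887 CPM), a 2.61-fold lower level (log2 -1.38 ± 0.14, adjusted p = 2.71e-09). Pdia3 was at 589, 601 and 819 CPM against 1104, 1013 and 1067 CPM, 1.58-fold lower (-0.66 ± 0.12, adjusted p = 1.46e-05), again with no overlap. Pdia4 was at 117, 122 and 199 CPM against 203, 214 and 244 CPM (-0.59 ± 0.15, adjusted p = 0.00126), and Pdia6 at 260, 283 and 452 CPM against 470, 463 and 470 CPM (-0.50 ± 0.16, adjusted p = 0.00674). For both isomerases mouse 3 was close to the libraries of LPS alone while mice 1 and 2 were far below. Hsp90b1, at 794, 818 and 1120 CPM against 980, 1071 and 1170 CPM, did not pass (-0.24, adjusted p = 0.0867), nor did Dnajc3 (-0.18) or Canx (0.10).

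Without mouse 3 of OSW-1 with LPS 9 members were called, Hsp90b1 (-0.41) and Dnajc3 (-0.27) being added to those that fell. Pdia6 was lost without mouse 1 (-0.35) or mouse 2 (-0.39), in a fit of the 2 groups alone (-0.48), and under scaling by library totals alone (-0.25). That scaling put the median of all genes at 0.19 and brought Canx in as higher (0.35). The OSW-1 libraries with LPS also stood apart in the summed level of 6 macrophage markers (Csf1r, Cd68, Itgam, Lyz2, Mertk and Fcgr1), which was 3306.89 to 4859.11 CPM there against 18210.5 to 28600.3 CPM with LPS alone and 17624.4 to 17881.5 CPM with OSW-1 before LPS. With 25HC and LPS that sum was 10633.4 to 16174.7 CPM and with itraconazole and LPS 11369.6 to 23703.8 CPM. None of these 6 was at 0 in any library. Lyz2 was the largest of them, with a median of 12656.1 CPM over all 30 libraries (range 1272.12 to 21074.3). The medians of the others ran from 51.6988 (Mertk) to 2085.25 CPM (Csf1r), and Csf1r was at 1297.53 CPM or more in every library. The sum is thus weighted to Lyz2 and does not show that each marker was lower. The part of the low marker sum, and of the odd counts in these libraries, in the results for the members was not tested.

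**Figure D2:**
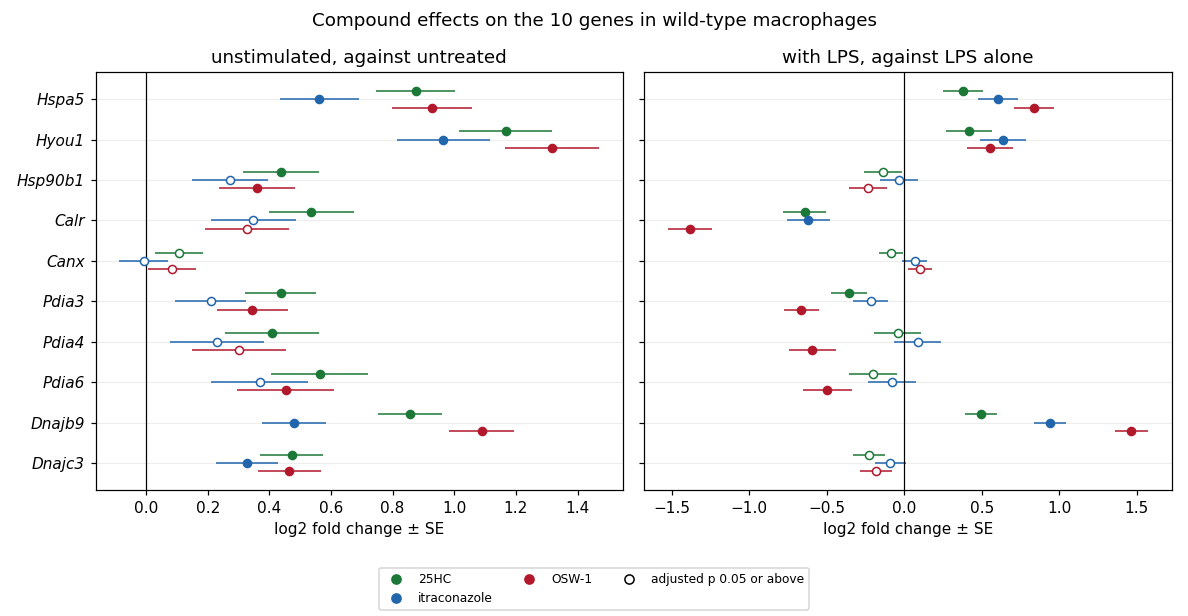
log2 fold change with its SE (edgeR, n = 3 libraries a group) of each gene for 25HC, itraconazole and OSW-1, without LPS against untreated cells (left) and with LPS against LPS alone (right), with open symbols where the adjusted p was 0.05 or more. On the left all called values are above 0, while on the right Hspa5, Hyou1 and Dnajb9 are above 0 and Calr is below it for all 3 compounds, from -0.62 with itraconazole to -1.38 with OSW-1.

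Seen within each treatment, LPS raised fewer members in cells given a compound. In 25HC cells LPS raised 3, with 30.6% of tested genes called higher: Hyou1 (log2 0.89 ± 0.15), Hspa5 (0.49 ± 0.13) and Dnajb9 (0.38 ± 0.10). Calr did not pass there, at 0.05, and neither did Dnajc3 (0.00), Canx (-0.00) or Pdia3 (-0.10). Scaling by library totals alone, which put the median of all genes at -0.36, called 5 in this comparison. Hyou1 stayed higher, Hspa5 (0.17) and Dnajb9 (0.07) lost their calls, and Pdia3 (-0.42), Hsp90b1 (-0.35), Canx (-0.32) and Dnajc3 (-0.31) were called lower, of which only Dnajc3 changed sign.

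In itraconazole cells LPS raised 8 members, with 33.4% of tested genes called higher, led by Hyou1 (log2 1.32 ± 0.15), Dnajb9 (1.21 ± 0.10) and Hspa5 (1.03 ± 0.13). Calr (0.26, adjusted p = 0.0908) and Hsp90b1 (0.24, adjusted p = 0.0841) did not pass. Under scaling by library totals alone the median of all genes was -0.31 and 3 members were called. Canx (-0.03), Pdia3 (-0.0251) and Dnajc3 (-0.0054) turned to just below 0 there. Without mouse 3 of itraconazole with LPS the calls of Pdia3 (0.18) and Dnajc3 (0.19) were lost. Pdia3 (adjusted p = 0.0442) was also lost with DESeq2, with no filter on low counts, and without itraconazole mouse 1, 2 or 3 before LPS or mouse 2 with it (0.26 to 0.28).

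In OSW-1 cells LPS raised 4 members, with 34.8% of tested genes called higher, and lowered 2, with 36.6% lower. Dnajb9 (log2 1.12 ± 0.10), Hspa5 (0.89 ± 0.13), Hyou1 (0.88 ± 0.15) and Canx (0.21 ± 0.08) rose. Calr fell, from 896, 1062 and 1254 CPM with OSW-1 alone to 684, 703 and 920 CPM with LPS added (-0.48 ± 0.14, adjusted p = 0.00325), and Pdia3 fell by 0.32 ± 0.12 (adjusted p = 0.0171). Both of these drops had overlapping groups, and mouse 3 was the highest library on each side. Canx was lost under scaling by library totals alone (0.06), where the median of all genes was -0.18. Its call also ended with no filter on low counts and in a fit of these 2 groups alone (0.20). Leaving out OSW-1 mouse 1 or 2 before LPS (0.20 each) or mouse 3 with it (0.14) ended the call too. Pdia3 was lost in that fit of 2 groups and without OSW-1 mouse 3 before LPS (-0.22) or mouse 1 (-0.23) or 2 (-0.24) with it. Without mouse 3 with LPS, Pdia4 (-0.40) and Pdia6 (-0.34) were called lower as well.

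Whether the LPS difference itself differed from that of untreated wild-type cells was tested as an interaction. With 25HC it was smaller for 6 members (6.95% of tested genes were called lower in that test): Calr (-1.18 ± 0.19, adjusted p = 0.000387), Pdia3 (-0.79 ± 0.16, adjusted p = 0.0027), Pdia6 (-0.77 ± 0.22), Hyou1 (-0.75 ± 0.21), Dnajc3 (-0.70 ± 0.14) and Hsp90b1 (-0.58 ± 0.17). Hspa5 (-0.50 ± 0.18, adjusted p = 0.072), Dnajb9 (-0.36), Pdia4 (-0.45) and Canx (-0.19) did not pass. In a fit of the compared groups alone Hyou1 (adjusted p = 0.109) and Hsp90b1 (adjusted p = 0.0846) were lost, and library totals alone ended the call of Hsp90b1 (-0.56). The count was 3 without untreated mouse 3 before LPS, without 25HC mouse 2 before LPS or without 25HC mouse 1 with LPS, where Hyou1, Hsp90b1 and Pdia6 no longer passed (for Hyou1 -0.56, -0.65 and -0.65).

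With itraconazole the LPS difference was smaller for Calr (-0.97 ± 0.19, adjusted p = 0.000798) and Dnajc3 (-0.42 ± 0.14, adjusted p = 0.0336), with 14.2% of tested genes called lower. It was larger for Dnajb9 (0.46 ± 0.15, adjusted p = 0.0213), with 12.2% called higher. With OSW-1 it was smaller for 7 members (28.3% of tested genes called lower): Calr (-1.71 ± 0.19, adjusted p = 1.09e-07), Pdia3 (-1.01 ± 0.16), Pdia6 (-0.95 ± 0.22), Pdia4 (-0.90 ± 0.22), Hyou1 (-0.76 ± 0.21), Dnajc3 (-0.65 ± 0.14) and Hsp90b1 (-0.60 ± 0.17). It was larger for Dnajb9 (0.38 ± 0.15, adjusted p = 0.0336), with 23.4% called higher. Hspa5 (-0.09) and Canx (0.01) did not pass. Calr was thus called smaller with each of the 3 compounds, in tests that share the untreated groups.

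Several of these interaction calls depended on single libraries or settings. With itraconazole, Dnajc3 was lost under scaling by library totals alone (-0.37, adjusted p = 0.113), in a fit of the compared groups alone (-0.41, adjusted p = 0.0985) and in 7 of the fits that left out 1 library: any unstimulated itraconazole mouse (-0.43, -0.41 and -0.41), itraconazole mouse 1 (-0.35) or 2 (-0.39) with LPS, and untreated mouse 3 without (-0.34) or with LPS (-0.33). Dnajb9 with itraconazole was lost without untreated mouse 1 (0.40) or itraconazole mouse 1 (0.41) before LPS and without untreated mouse 3 (0.40) or itraconazole mouse 1 (0.42) with it. Dnajb9 with OSW-1 was lost with no filter on low counts (adjusted p = 0.0505), in the compared groups alone (adjusted p = 0.0967) and in 6 of the fits that left out 1 library. Those were untreated mouse 1 (0.31) and OSW-1 mice 1 (0.35) and 2 (0.33) before LPS, and untreated mice 2 (0.36) and 3 (0.31) and OSW-1 mouse 3 (0.21) with it. Hsp90b1 with OSW-1 was lost under library totals alone (-0.41, adjusted p = 0.0697). Pdia3 with itraconazole, not called above, was called smaller by DESeq2 (-0.44, adjusted p = 0.0299) and limma-voom (-0.44, adjusted p = 0.0281). Its call was also made with DESeq2 size factors and with the mouse number as a block. So it was without untreated mouse 2 before LPS (-0.48) or itraconazole mouse 3 with LPS (-0.51).

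**Figure D3:**
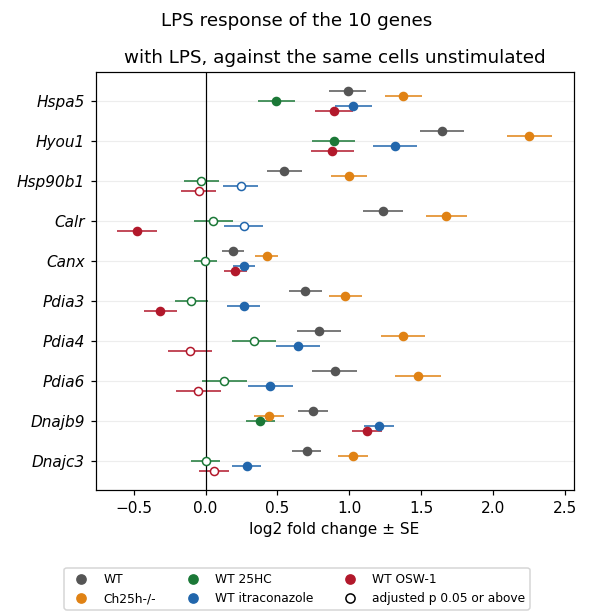
log2 fold change of LPS with its SE (edgeR, n = 3 libraries a group) for each gene in untreated wild-type, untreated Ch25h-/- and 25HC, itraconazole and OSW-1 pretreated wild-type cells. Calr runs from 1.68 in Ch25h-/- and 1.23 in wild-type cells to -0.48 with OSW-1, whereas Dnajb9 is larger with itraconazole (1.21) and OSW-1 (1.12) than in untreated wild-type cells (0.75); scaling by library totals alone turns the sign of the small values of Canx in wild-type cells, Dnajc3 in 25HC cells, and Canx, Pdia3 and Dnajc3 in itraconazole cells.

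The compounds were then set against each other, in 3 pairs without LPS and 3 with it, each at its own dose (5, 1 and 0.3 µM), so these differences are between treatments as given and not at matched doses. 25HC carries an added hydroxyl group on the cholesterol side chain, OSW-1 is a cholestane glycoside and itraconazole is a triazole with no steroid ring system. Without LPS, 25HC and OSW-1 differed in 0 of 10 members by edgeR's test, with 2.83% of tested genes called. At an unadjusted p under 0.05, 1 member and 2225 of all tested genes differed. The 95% interval of 25HC minus OSW-1 ran from -0.32 to 0.21 on the log2 scale for Hspa5, from -0.46 to 0.16 for Hyou1 and from -0.44 to -0.02 for Dnajb9. 25HC and itraconazole likewise differed in 0 members after adjustment, with 0.235% of tested genes called. At an unadjusted p under 0.05, 2 members and 998 of all tested genes differed. DESeq2 and limma-voom also called 0 members in these 2 pairs. The interval of 25HC minus itraconazole was 0.05 to 0.58 for Hspa5 and 0.17 to 0.59 for Dnajb9. OSW-1 exceeded itraconazole in Dnajb9 only, by 0.61 ± 0.10 (adjusted p = 0.00116, 3.58% of tested genes higher), with intervals of 0.10 to 0.63 for Hspa5 and 0.05 to 0.66 for Hyou1.

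With LPS, 25HC and itraconazole differed in 1 member: Dnajb9 was 0.45 ± 0.10 lower with 25HC on the log2 scale (value -0.45, adjusted p = 0.0117, with 3.73% of tested genes lower), a call that was lost without 25HC mouse 1 (-0.39) and in a fit of these 2 groups alone (-0.44, adjusted p = 0.143). OSW-1 stood further off. Against 25HC with LPS, OSW-1 with LPS was higher in Dnajb9, Hspa5 and Canx and lower in Calr, Pdia4 and Pdia3, where 28.3% of tested genes were lower and 30.4% higher in 25HC than in OSW-1. As 25HC minus OSW-1 the values were -0.97 ± 0.10 for Dnajb9 (adjusted p = 1.86e-08), 0.74 ± 0.14 for Calr (adjusted p = 5.7e-05), 0.55 ± 0.15 for Pdia4, -0.46 ± 0.13 for Hspa5, 0.31 ± 0.12 for Pdia3 and -0.19 ± 0.08 for Canx. Pdia3 and Pdia4 had overlapping groups. Scaling by library totals alone ended the calls of Pdia3 (0.10) and Pdia4 (0.35), and a fit of these 2 groups alone ended those of Pdia3 and Canx. Pdia3 was lost without OSW-1 mouse 1 (0.22) or 2 (0.23), Canx without 25HC mouse 1 (-0.14) or OSW-1 mouse 3 (-0.12) or with no filter on low counts, and both without 25HC mouse 3, which left 4 members called. Without OSW-1 mouse 3 Pdia6 was called too (0.58).

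OSW-1 with LPS was also lower than itraconazole with LPS in Calr and the 3 isomerases, and not in the other lectin, Canx (0.03, adjusted p = 0.763), with 25.5% of tested genes lower and 23.1% higher. The OSW-1 minus itraconazole values were -0.76 ± 0.14 for Calr (adjusted p = 6.57e-05), -0.68 ± 0.15 for Pdia4 (adjusted p = 0.000719), -0.45 ± 0.12 for Pdia3 (adjusted p = 0.0025) and -0.42 ± 0.16 for Pdia6 (adjusted p = 0.0306, groups overlapping). Dnajb9 was higher with OSW-1, by 0.52 ± 0.10 (adjusted p = 0.000162), while Hspa5 did not pass (0.23, adjusted p = 0.142). The Pdia6 call was lost under scaling by library totals alone (-0.27), in a fit of these 2 groups alone (-0.43, adjusted p = 0.123), and without OSW-1 mouse 1 (-0.27) or 2 (-0.31) or itraconazole mouse 2 (-0.44) or 3 (-0.39). Library totals alone brought Hspa5 in as higher (0.39), and Hsp90b1 was called lower without OSW-1 mouse 3 (-0.38). The odd counts and the low macrophage marker sum of the OSW-1 libraries with LPS stand beside these differences too.

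Because Calr and Pdia3 parted from Hspa5, their count ratios within each library were computed, a measure chosen after the values were seen and given with no test. A ratio within a library does not depend on the scaling between libraries. Calr to Hspa5 was 0.982 ± 0.0504 in untreated wild-type cells (SD, n = 3) and 1.16 ± 0.11 after LPS, and in Ch25h-/- cells 1.02 ± 0.0122 and 1.26 ± 0.0386. Before LPS it was 0.841 ± 0.0279 with itraconazole, 0.775 ± 0.0574 with 25HC and 0.641 ± 0.0459 with OSW-1. After LPS it was 0.573 ± 0.106 with 25HC, 0.501 ± 0.0948 with itraconazole and 0.249 ± 0.0034 with OSW-1, where the 3 mice were almost equal although their Hspa5 levels ran from 2747 to 3652 CPM. LPS therefore went with a higher ratio in untreated cells of both genotypes and with a lower one in all 3 compound groups.

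Pdia3 to Hspa5 behaved differently in untreated cells, going from 0.758 ± 0.0591 to 0.614 ± 0.0458 with LPS in wild-type cells and from 0.854 ± 0.0411 to 0.642 ± 0.0206 in Ch25h-/- cells. It was 0.559 ± 0.062 with 25HC, 0.588 ± 0.0102 with itraconazole and 0.501 ± 0.00945 with OSW-1 before LPS, and 0.369 ± 0.0419, 0.35 ± 0.0673 and 0.216 ± 0.00754 with LPS. The lowest value of both ratios was in the OSW-1 group with LPS.

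**Figure D4:**
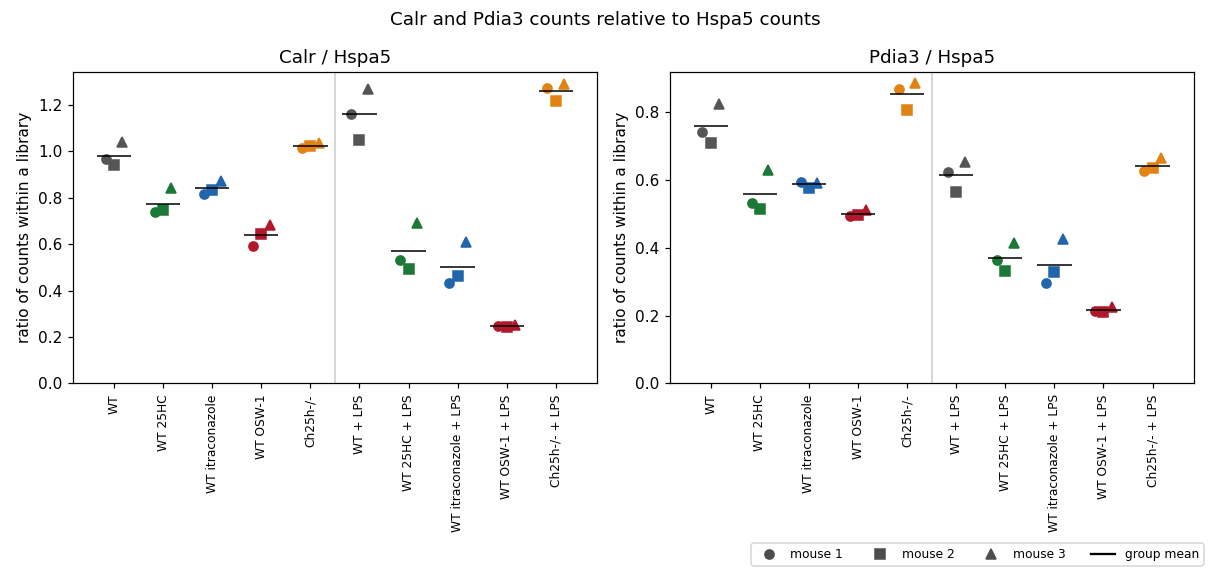
Ratio of Calr counts (left) and Pdia3 counts (right) to Hspa5 counts in each library by group, with 1 marker shape per mouse number and a line at the group mean. Calr to Hspa5 lies near 1 in untreated cells, rises with LPS in both genotypes and drops to 0.249 with OSW-1 and LPS.

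Across the 10 group means Hspa5 ran in the order Ch25h-/- at 679 ± 104 CPM, wild type at 874 ± 161, itraconazole at 1291 ± 12.2, 25HC at 1603 ± 173, OSW-1 at 1663 ± 161, wild type with LPS at 1734 ± 89.3, Ch25h-/- with LPS at 1763 ± 14.6, 25HC with LPS at 2252 ± 143, itraconazole with LPS at 2632 ± 213 and OSW-1 with LPS at 3089 ± 491 CPM. Among neighbours in that order the libraries did not overlap between wild type and itraconazole, between itraconazole and 25HC, and between Ch25h-/- with LPS and 25HC with LPS, and all other neighbours overlapped. Each compound alone thus brought Hspa5 toward the level of LPS alone, with OSW-1 and 25HC overlapping it.

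Calr had another order: Ch25h-/- at 696 ± 106 CPM, OSW-1 with LPS at 769 ± 131, wild type at 853 ± 118, OSW-1 at 1070 ± 179, itraconazole at 1086 ± 41.8, 25HC at 1236 ± 75.7, 25HC with LPS at 1284 ± 201, itraconazole with LPS at 1304 ± 132, wild type with LPS at 2004 ± 102 and Ch25h-/- with LPS at 2222 ± 74.1 CPM. The 2 untreated LPS groups stood clear of all others and of each other, and itraconazole stood clear of 25HC. All other neighbours overlapped. OSW-1 with LPS lay in the range of untreated cells without LPS.

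The span of the group means, on the log2 scale, was 2.74 for Hyou1, 2.20 for Dnajb9 and 2.18 for Hspa5, and 0.57 for Canx, the steadiest member. Ch25h-/- without LPS was the lowest group for 9 of the 10, and Ch25h-/- with LPS the highest for 6: Hsp90b1, Calr, Pdia3, Pdia4, Pdia6 and Dnajc3. Hspa5, Canx and Dnajb9 peaked with OSW-1 and LPS, and Hyou1 with itraconazole and LPS. As a description over the 10 group means, which share libraries of the same mice, the correlation with Hspa5 was 0.978 for Hyou1, 0.920 for Canx and 0.915 for Dnajb9, against 0.475 for Pdia3 and 0.358 for Calr. Calr, with an exact ERSE, and Dnajb9, with none in the window searched, were at opposite ends of the responses to compound with LPS. Hspa5 and Calr, each with 1 exact ERSE shown above, moved in opposite directions there.

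Among 10056 genes with enough counts, those closest to the members' mean profile over the 10 group means were Rpn1, a subunit of the oligosaccharyltransferase, with a correlation of 0.989, Gyk (0.976), Creld2, an ER protein with disulfide isomerase activity (0.973), Atp2a2, the calcium pump of the ER (0.971), Agpat5 (0.966), Alg1, an enzyme of glycan precursor assembly (0.965), Pilra (0.956) and Gm11110 (0.953). Closest to Hspa5 were Tmed9 (0.993) and Tmed2 (0.992), cargo receptors between ER and Golgi, Abtb2 (0.992), Slc39a7, a zinc transporter of the ER (0.992), and Hspa13 (0.991). These values describe 10 points and carry no test.

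The other ER folding genes, a list of 30 tested genes of the same compartment, were counted in the same comparisons, and the shares of all tested genes called higher and lower are set beside the counts. LPS alone raised 18 of them and lowered 1 in wild-type cells (median 0.42; all genes 30.8% and 30.1%), and 25HC raised 17 and lowered 0 (median 0.37; all genes 15.9% and 12.8%). Itraconazole raised 13 and lowered 0 (0.24; all genes 14.4% and 12.4%) and OSW-1 18 and 1 (0.40; all genes 20.1% and 17.2%). P4hb, the founding protein disulfide isomerase, rose with LPS (1.27 ± 0.12), as did Ero1l, the oxidase that recharges it, from 39.3 ± 6.76 to 210 ± 47.1 CPM (2.42 ± 0.18). Creld2 rose by 1.40 ± 0.13 on the log2 scale. With OSW-1 and LPS, 10 of the 30 rose and 11 fell, close to the shares of all tested genes (34.3% and 37.1%), among them Pdia5, a further isomerase, which rose (2.52 ± 0.17), and Erp29, a lumenal chaperone, which fell from 298 ± 32.4 to 94.2 ± 20.1 CPM (-1.66 ± 0.15). P4hb (-0.15) and Creld2 (-0.25) did not pass there. Pdia5 also rose with 25HC (1.63) and itraconazole (2.21) on top of LPS.

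A list of 16 genes held sensors of the unfolded protein response and their direct effectors. Besides sensors and transcription factors it included Ppp1r15a, Ppp1r15b, Trib3, Mbtps1, Mbtps2 and Wfs1. LPS alone raised 12 of the 16 and lowered 1. Before LPS 25HC raised 9, itraconazole 7 and OSW-1 14, each lowering 0. Of all tested genes, LPS alone raised 30.8% and lowered 30.1%. The shares before LPS were 15.9% and 12.8% with 25HC, 14.4% and 12.4% with itraconazole, and 20.1% and 17.2% with OSW-1. Xbp1, spliced by Ern1 into an active factor, went from 164 ± 19.9 to 323 ± 17.8 CPM with LPS (log2 0.98 ± 0.07), and rose with 25HC (0.63), itraconazole (0.40) and OSW-1 (0.70) before LPS. Gene counts do not tell its spliced from its unspliced form. Atf4, the factor downstream of Eif2ak3, rose with LPS (1.32 ± 0.18) and with OSW-1 on top of LPS, from 374 ± 124 to 1162 ± 36.7 CPM (1.64 ± 0.18). Ddit3, an Atf4 target, rose with LPS (1.58 ± 0.26), with 25HC (1.10) and with OSW-1 (1.57), and not by the test with itraconazole (0.34). Ern1 rose with LPS (0.52 ± 0.13) and with OSW-1 (0.47), and Atf6 rose with both (0.28 ± 0.09 and 0.24). Eif2ak3 was at 0.02 with LPS and did not pass, and it rose with 25HC (0.47) and OSW-1 (0.58). With LPS, 25HC raised 10 of the 16 and lowered 0, itraconazole 13 and 0, and OSW-1 14 and 1, where the shares of all tested genes were 20.8% and 21%, 26.5% and 27.9%, and 34.3% and 37.1%.

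Of 28 genes of the translocon and of ER-associated degradation, LPS raised 20 and lowered 1, and before LPS 25HC raised 21, itraconazole 11 and OSW-1 21, each lowering 0. The shares of all tested genes higher and lower were 30.8% and 30.1% with LPS. Before LPS they were 15.9% and 12.8% with 25HC, 14.4% and 12.4% with itraconazole, and 20.1% and 17.2% with OSW-1. Herpud1, which organises the degradation machinery, rose with 25HC (log2 0.61 ± 0.15), itraconazole (0.39) and OSW-1 (1.24 ± 0.15) before LPS. It did not pass with LPS alone in wild-type (-0.07) or Ch25h-/- cells (-0.30), where all 10 members rose. On top of LPS it rose with itraconazole (0.61) and OSW-1 (1.55 ± 0.15) and not by the test with 25HC (0.13).

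Of 10 genes that return escaped ER proteins from the Golgi, where most members carry the retrieval signal that is read, 8 rose with LPS, 9 with each compound before LPS, and 8, 9 and 9 with 25HC, itraconazole and OSW-1 on top of LPS, with 0 lower in each. Of all tested genes, 30.8% were higher with LPS, and 15.9%, 14.4% and 20.1% with 25HC, itraconazole and OSW-1 before LPS. On top of LPS the shares higher were 20.8%, 26.5% and 34.3%, in the same order. The shares lower in these comparisons ran from 12.4% to 37.1%. Kdelr2, a receptor of that signal, rose with 25HC (log2 1.35 ± 0.08), itraconazole (1.05) and OSW-1 (1.24) before LPS and went from 69.6 ± 2.53 CPM with LPS alone to 284 ± 6.19 CPM with OSW-1 and LPS (2.03 ± 0.08). In the same comparison Calr and Pdia3, both lumenal, fell. Of 19 chaperones of the cytosol and mitochondria, LPS raised 14 and lowered 2 (all genes 30.8% and 30.1%). OSW-1 on top of LPS raised 12 and lowered 3 (all genes 34.3% and 37.1%). Hspa9, the mitochondrial Hsp70, rose there by 2.09 ± 0.17 and Cct2 by 0.94.

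An exact ERSE was found in the windows of 31 genes besides the members, 11 of which were tested. Those were Acacb, Adcy3, Alg12, Creld2, Derl3, Ero1lb, Hnrnpa3, Pan2, Syvn1, Xlr3a and Xlr3b. With LPS alone 4 of the 11 rose and 4 fell, where 30.8% of all tested genes were higher and 30.1% lower. Before LPS, 25HC raised 5 and lowered 2, itraconazole raised 4 and lowered 1, and OSW-1 raised 5 and lowered 2. The shares of all tested genes there were 15.9% and 12.8%, 14.4% and 12.4%, and 20.1% and 17.2%. On top of LPS, 25HC raised 1 and lowered 2, itraconazole raised 1 and lowered 3, and OSW-1 raised 1 and lowered 4. For all tested genes the shares were 20.8% and 21%, 26.5% and 27.9%, and 34.3% and 37.1%. Among the 6 members with an exact site, OSW-1 with LPS raised Hspa5 and lowered Calr and Pdia6. Hsp90b1, Canx and Dnajc3 were tested there and did not pass.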

How the data were processed

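Polyadenylated RNA of 30 macrophage libraries was sequenced with stranded libraries, per the labels' protocols. The deposited values are raw counts per gene. Per the submitters' processing notes, the tools used include FastQC 0.11.9, GSNAP 2018-07-04, featureCounts (Subread 1.5.2) and edgeR 3.26.8, with build GRCm38/mm10, and the annotation release and strand setting are not given in the sources used here. The counts were fitted here in 1 model over all 10 groups with edgeR 4.0.16 (R 4.3.3): TMM scaling, a minimum count of 10 in filterByExpr, quasi-likelihood tests and Benjamini-Hochberg adjustment over 13173 genes, with a call at 0.05. Levels are TMM-scaled CPM, and each SE comes from the fold change and the F statistic of its test. Alternatives used limma 3.58.1 and DESeq2 1.42.0. The script was checked on simulated counts.

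The members and gene lists were chosen with earlier results of these data known, so no list carries a test. Named genes are all members, the genes most like the members, and some of those with the 3 smallest p-values per list and comparison. Other list genes, such as P4hb, Creld2, Ddit3 and Herpud1, were named without regard to that rank. The tests treat libraries of 1 mouse as independent. After group means were subtracted, same-numbered libraries of a genotype had a median r of 0.0893, against -0.0447 between mice. On that measure all 30 libraries matched best with their own mouse number.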

Additional observations from a re-analysis of the deposited data

Results flagged for a closer look

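For 17 results the LPS difference of a member under a compound differed from that of untreated wild-type cells by the interaction test (edgeR, adjusted p under 0.05). These tests share the untreated groups. With 25HC the values on the log2 scale were -0.75 for Hyou1, -0.58 for Hsp90b1, -1.18 for Calr, -0.79 for Pdia3, -0.77 for Pdia6 and -0.70 for Dnajc3. With itraconazole they were -0.97 for Calr, 0.46 for Dnajb9 and -0.42 for Dnajc3. With OSW-1 they were -0.76 for Hyou1, -0.60 for Hsp90b1, -1.71 for Calr, -1.01 for Pdia3, -0.90 for Pdia4, -0.95 for Pdia6, 0.38 for Dnajb9 and -0.65 for Dnajc3. Groups of 3 libraries are too small for the check for single outlying libraries.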

How the results depend on the processing

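Of 230 values for the members, DESeq2 size factors kept the direction and the side of the threshold for 227, no filter on low counts for 225, even counts halved for 230, limma-voom with the mouse as a random effect for 222, DESeq2 for 224, the compared groups alone for 209 and library totals alone for 203. The mouse number as a block in the paired fit kept 208 of 210 and ended no call. It added Pdia3 for the interaction of LPS with itraconazole (-0.43, adjusted p = 0.0405) and Calr for itraconazole before LPS (0.34, adjusted p = 0.0488). With group means subtracted, all 30 libraries correlated best with their own mouse number. The block could not be fitted between genotypes, whose mice differ.

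Library totals alone turned the sign of 4 called LPS values: Canx in untreated wild-type cells (-0.15), and Canx (-0.0298), Pdia3 (-0.0251) and Dnajc3 (-0.0054) in itraconazole cells. They also turned Dnajc3 in 25HC cells, not called before (0.00), to called lower (-0.31). Counts of called members moved with library totals alone to 5 for LPS in 25HC cells and 3 for LPS in itraconazole cells. The compared groups alone gave 2 for 25HC with LPS, 3 for OSW-1 against itraconazole before LPS, and 0 for 25HC against itraconazole with LPS. limma-voom gave 2 for OSW-1 against itraconazole before LPS, and DESeq2 gave 1 for genotype before LPS. The cause was not tested.

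Leaving out single libraries, the counts ran from 9 to 10 for LPS in wild-type and 10 to 10 in Ch25h-/- cells, 3 to 4 in 25HC, 6 to 8 in itraconazole and 5 to 7 in OSW-1 cells. Against untreated cells they ran from 5 to 9 for 25HC, 3 to 6 for itraconazole and 4 to 8 for OSW-1, and with LPS from 2 to 5, 4 to 5 and 6 to 9. For the interactions they ran from 3 to 7 with 25HC, 1 to 4 with itraconazole, 7 to 8 with OSW-1 and 0 to 0 with genotype. For genotype they ran from 0 to 4 before LPS and 0 to 0 with it. Between compounds before LPS they ran from 0 to 0 for 25HC against both others and 1 to 1 for OSW-1 against itraconazole, and with LPS from 0 to 1 for 25HC against itraconazole, 4 to 6 for 25HC against OSW-1 and 4 to 6 for OSW-1 against itraconazole. With 3 libraries a group the precision is limited by their number more than by depth.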
